A study of Danio rerio with 6 samples.

Results

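The MAP kinase phosphatases of the dusp family are the enzymes that switch off MAP kinases, and the 8 genes described here are dusp1, dusp2, dusp4, dusp5, dusp6, dusp7, dusp10 and dusp16. They were chosen by gene symbol, as the rows of the deposited count table that carry an Ensembl zebrafish ID and one of these names, and they are 8 of 27314 rows. The choice was made with the MTZ and DMSO values of these same libraries known, so the comparison of the groups is given below as a description.

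The libraries came from blood cells of the larval zebrafish kidney, the organ in which fish keep their blood stem and progenitor cells. All larvae, in both groups, carried the transgene Tg(coro1a:DenNTR). Its coro1a promoter is active in leukocytes and drives Dendra2, a photoconvertible protein, as a fusion with NTR. The genotype is labelled WT. The DMSO group (3 libraries) and the MTZ group (3 libraries) were taken at 3.5 dpt and 9 dpf. Laser light turned the labelled cells of the kidney red, larvae were pooled, and each library was made by Smart-seq2, a full-length cDNA method, from 50 sorted red cells. The title of the series concerns the CXCR4-CXCL12 axis and the rebuilding of the T cell pool by immigrating progenitors. With NTR (nitroreductase) transgenes MTZ is usually metronidazole, a prodrug that the enzyme makes toxic. The MTZ libraries therefore hold labelled cells present after the treatment. Whether each library had its own pool of larvae is not stated in the labels, so a p-value here speaks of the spread among these 6 libraries, and that spread can be technical.

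MAP kinases (ERK, JNK and p38) are active only while a threonine and a tyrosine of their activation loop carry phosphate, and a dual-specificity phosphatase of this family removes both. In mammals, DUSP1, DUSP2, DUSP4 and DUSP5 lie in the nucleus and are made within minutes of a stimulus, often through the same kinases that they later turn off. DUSP6 and DUSP7 lie in the cytoplasm and act mainly on ERK, while DUSP10 and DUSP16 act mainly on JNK and p38. In leukocytes these enzymes set how long a cell responds to antigen, cytokines or microbial products.

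Libraries held between 14058399 and 20674279 counts, and levels are given in CPM, the counts divided by each library's TMM-adjusted total. The floor of 3 counts was worth 0.149 to 0.233 CPM. The gate's promoter gene coro1a had between 1287 and 2573 CPM, and the leukocyte actin-bundling gene lcp1 between 1055 and 2404 CPM. The pan-leukocyte phosphatase gene ptprc, which encodes CD45, was less even, with 15.7 CPM in DMSO 3 and up to 243 CPM in MTZ 2. Single libraries stood apart in their other cells. Skeletal muscle markers summed to 10281 CPM in DMSO 1 and to at most 74.2 CPM in any other library. Neutrophil markers reached 17364 CPM in MTZ 1, against at most 6361 CPM in any other library. Exocrine pancreas markers reached 820 CPM in MTZ 3, where no other library exceeded 92.6 CPM. In such bulk libraries, fewer cells of a type and less RNA per cell cannot be told apart.

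The family as a whole had more reads in MTZ. The 8 genes together took 1647, 1494 and 1595 CPM under DMSO and 2069, 2915 and 3435 CPM under MTZ. Every MTZ library lay above every DMSO library, and the ratio of the group means was 1.78. Most of these reads were dusp1, and without it the other 7 genes summed to 328, 315 and 543 CPM in DMSO and to 915, 821 and 662 CPM in MTZ. By class, the nuclear inducible genes summed to 1425 ± 59.4 CPM in DMSO and 2644 ± 746 CPM in MTZ (SD, n = 3 libraries per group, as for every ± on a CPM value below). The cytoplasmic ERK phosphatases had 153 ± 55.2 CPM in DMSO and 162 ± 58.4 CPM in MTZ, and the JNK and p38 phosphatases had at most 3.58 CPM in any library. Among the nuclear genes, the means were 1184 CPM in DMSO and 2007 CPM in MTZ for dusp1, whose groups overlapped. They were 181 and 521 CPM for dusp2, 33.7 and 84.9 CPM for dusp5, and 26.3 and 30.4 CPM for dusp4. The nuclear sum was thus mostly dusp1 and dusp2. The genes were picked with these values known, and no background was computed for sums, so nothing is read from them about a class.

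**Figure D1:**
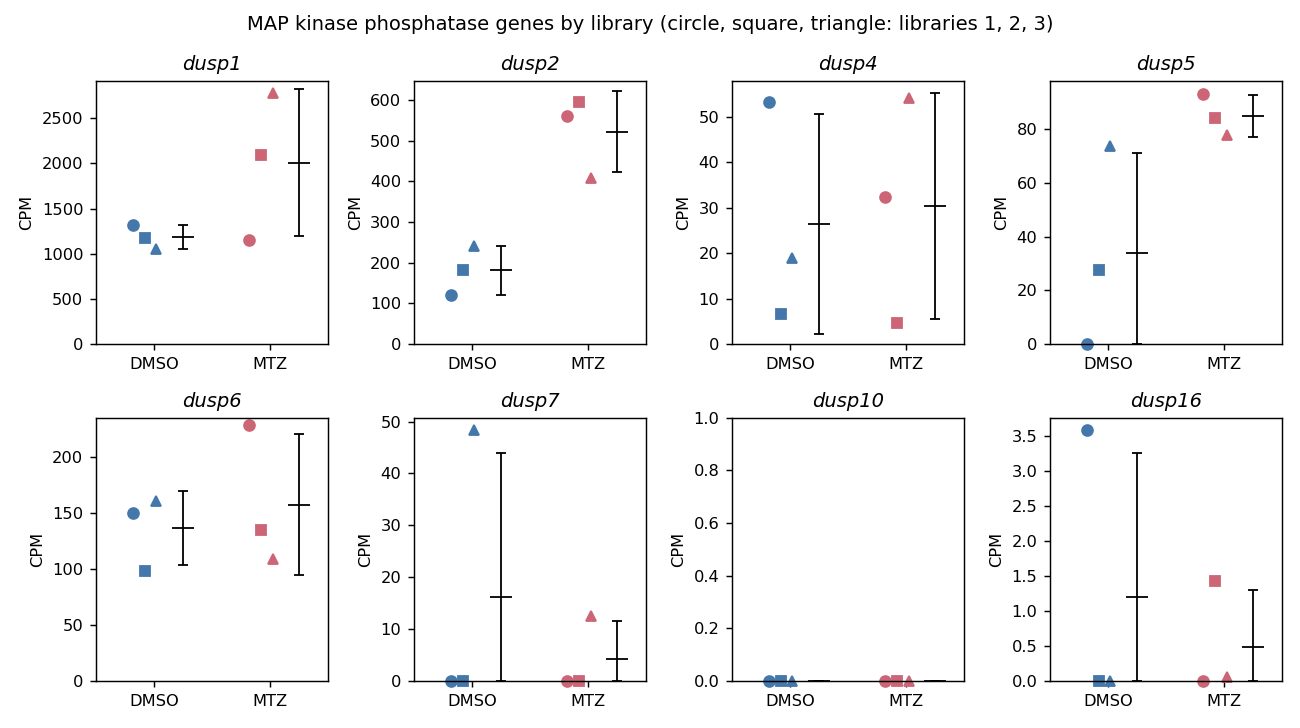
Level of each of the 8 phosphatase genes in CPM (y axis, linear, a separate scale for each gene) in the DMSO and MTZ libraries; symbols are single libraries, the bar is the mean and the whiskers are the SD, cut at 0. For dusp2 and dusp5 all MTZ libraries lie above all DMSO libraries, the groups overlap for dusp1, dusp4 and dusp6, and dusp10 is at 0 throughout.

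Of the nuclear genes, dusp2 had the largest fitted difference relative to its error. Known in mammals as PAC-1, it was described in activated lymphocytes and acts on ERK and p38. The gene dusp2 (ENSDARG00000098108) had 120, 182 and 241 CPM under DMSO and 561, 596 and 408 CPM under MTZ. The groups did not overlap, and the lowest MTZ library stood 1.69-fold above the highest DMSO library. The means were 181 ± 60.2 CPM in DMSO and 521 ± 99.7 CPM in MTZ. The log2 fold change was 1.53 ± 0.33 (SE), and between 1.31 and 1.79 with any 1 library left out. By its unadjusted p, 0.00156, dusp2 was number 5 of the 10283 genes tested, but over all of them edgeR's adjusted p was 0.9997.

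The gene dusp1 (ENSDARG00000100515), the immediate early phosphatase MKP-1 that limits inflammatory p38 and JNK signalling in mammals, was read abundantly in every library. It had 1319, 1179 and 1053 CPM in DMSO and 1154, 2094 and 2773 CPM in MTZ. The DMSO libraries lay close together (1184 ± 133 CPM), whereas the highest MTZ library stood 2.4-fold above the lowest (2007 ± 813 CPM). MTZ 1 was within the DMSO range, and the other MTZ libraries were above it. The log2 fold change was 0.76 ± 0.31 (edgeR adjusted p = 0.9997), and it ran from 0.46 without MTZ 3 to 1.05 without MTZ 1. MTZ 3 had the highest dusp1 level and MTZ 1 the lowest of its group. MTZ 3 also had the highest pancreas marker sum and MTZ 1 the highest neutrophil marker sum. Over the 6 libraries, dusp1 had a Pearson r of 0.93 with the pancreas sum, the highest of the marker lists, and of -0.61 with the neutrophil sum. The part of those cells in the dusp1 level was not tested.

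The MTZ library with the most dusp1 (MTZ 3) had the least dusp2, and the ratio of these genes did not separate the groups. There were 0.0913, 0.154 and 0.229 dusp2 reads for each dusp1 read under DMSO and 0.486, 0.284 and 0.147 under MTZ. MTZ 1 had the highest ratio, with dusp2 above its DMSO range and dusp1 within its own. The ratio in MTZ 3 lay inside the DMSO range.

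The gene dusp5 (ENSDARG00000019307), a nuclear phosphatase specific for ERK in mammals, had 0.0778, 27.5 and 73.7 CPM in DMSO and 93.1, 84.0 and 77.6 CPM in MTZ. The MTZ libraries were tightly grouped, at 84.9 ± 7.78 CPM, while the DMSO libraries ran from a single count to nearly the MTZ level (33.7 ± 37.2 CPM). The groups did not overlap, but DMSO 3 and MTZ 3 were only 3.95 CPM apart. The log2 fold change of 1.33 ± 1.47 (edgeR adjusted p = 0.9997) depended on DMSO 1, and it was 0.76 ± 0.73 without that library and 2.62 ± 1.76 without DMSO 3. DMSO 1 had 1 count of dusp5. Of the 3756 tested genes at 10 CPM or more in each of the other 5 libraries, 95 (2.53%) were likewise at 3 counts or fewer in DMSO 1. In the other libraries such single-library gaps took between 1.09% and 3.16% of the genes. DMSO 1 was also the library with the muscle reads, whose part in the dusp5 level was not tested.

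The gene dusp4 (ENSDARG00000044688), the nuclear phosphatase MKP-2 of mammals, differed widely inside each group. It had 53.3, 6.67 and 19.0 CPM in DMSO and 32.3, 4.70 and 54.2 CPM in MTZ. The highest library stood 11.5-fold above the lowest in MTZ, while the group means were 26.3 ± 24.2 and 30.4 ± 24.8 CPM. The log2 fold change of 0.21 ± 1.40 (edgeR adjusted p = 0.9997) turned to -0.24 without DMSO 2 and to -0.50 without MTZ 3. The spread inside each group was larger than the difference between the means, and edgeR called no gene of any fold change in this fit.

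Of the cytoplasmic genes, dusp6 (ENSDARG00000070914), the MKP-3 phosphatase that zebrafish embryos make in response to Fgf and ERK signalling, was measured evenly. It had 151, 98.6 and 161 CPM in DMSO and 229, 135 and 109 CPM in MTZ. The groups overlapped (137 ± 33.3 and 158 ± 63.0 CPM), with MTZ 1 alone above the DMSO range. The log2 fold change was 0.21 ± 0.42 (edgeR adjusted p = 0.9997), and it turned to -0.15 without MTZ 1. MTZ 1 was the library with the highest neutrophil marker sum. Over the 6 libraries that sum had a Pearson r of 0.86 with dusp6, the highest of the 12 marker lists. The part of neutrophils in the dusp6 level was not tested. Its relative dusp7 (ENSDARG00000101413) had 48.3 CPM in DMSO 3, 12.6 CPM in MTZ 3, 1 count in DMSO 1 and none in the other 3 libraries. Counts in 3 of 6 libraries were found for 1780 rows of the table (6.52%).

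The JNK and p38 phosphatases were all but absent from the reads. The gene dusp16 (ENSDARG00000102474) had 46 counts in DMSO 1, 23 in MTZ 2, 1 in MTZ 3 and none elsewhere, which is at most 3.58 CPM. The gene dusp10 (ENSDARG00000052465) had no count in any library, as did 9403 rows in all. A count of 0 allows up to 0.233 CPM in the shallowest library, for counting error only. These genes and dusp7 did not pass the filter on low counts and were not tested.

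All 5 genes that could be tested had positive log2 fold changes, with a median of 0.76, where the median of all 10283 genes tested was 0.02 and 50.9% of them were positive. EdgeR called 0 of the 5 at an adjusted p under 0.05, and it called 0% of all genes. At an unadjusted p under 0.05 there were 2 of the 5 (dusp1 and dusp2) and 327 of all 10283 genes. Of the 5, DESeq2 called dusp2 alone (adjusted p = 0.00538), and it called 381 of all 10266 genes it tested. Limma voom called 0 of 10283 genes (dusp2 adjusted p = 0.385). Every MTZ library lay above every DMSO library for 2 of the 5 (dusp2 and dusp5), against 5.58% of all genes tested. Every MTZ library lay below for 0 of the 5, against 5.17%. Since the genes were picked with these values known, nothing is read from these counts.

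**Figure D2:**
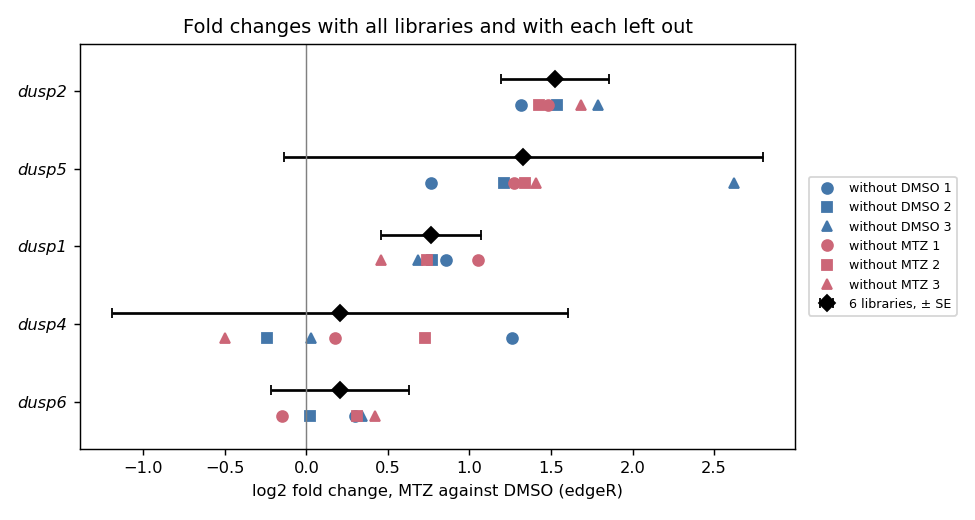
Log2 fold change of MTZ against DMSO (x axis, edgeR) for the 5 tested phosphatase genes; diamonds with whiskers are all 6 libraries ± SE, and coloured symbols leave out 1 library each. For dusp2 all estimates lie between 1.31 and 1.79, dusp5 runs from 0.76 to 2.62, and dusp4 and dusp6 cross 0.

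The tested genes also differed in how steady they were between libraries of a group. The biological coefficient of variation (the spread beyond counting error) was 0.394 for dusp1, 0.413 for dusp2 and 0.501 for dusp6, and it was larger in 96.6%, 95.2% and 89.5% of the genes tested. For dusp4 and dusp5 it was 1.22 and 1.19, close to the value of 1.42 common to all genes. The comparison was not matched for read level, and dusp4 and dusp5 had the fewest reads of the tested phosphatase genes. Over the 6 libraries, dusp2 and dusp5 were the pair with the most similar pattern (Pearson r = 0.82 of log2(CPM + 1)), followed by dusp1 with dusp2 (r = 0.45). The pair least alike was dusp1 with dusp6 (r = -0.46). These values describe 6 points that share library, depth and cell makeup.

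Genes that followed single phosphatases most closely were sought among 3382 genes with at least 50 CPM on average. The nearest to dusp2 were tpm3 (a tropomyosin, r = 0.97), eif4ebp1 (an inhibitor of translation initiation, r = 0.97), nktr (r = 0.97) and usp1 (a deubiquitinase of DNA repair, r = 0.97). Of these, usp1 had 63.4, 60.5 and 81.6 CPM in DMSO and 155, 159 and 138 CPM in MTZ. The nearest to dusp1 were mpc2 (a mitochondrial pyruvate carrier, r = 0.98), ube2a (r = 0.96), ndc1 (r = 0.95) and the NF-kB inhibitor gene nfkbiab (r = 0.95). Like dusp1, nfkbiab was lower in MTZ 1 (376 CPM) than in MTZ 2 and MTZ 3 (816 and 760 CPM). The nearest to dusp5 were pus1, mrpl28, map3k7 and acp6 (r between 0.98 and 0.99), each at its lowest level in DMSO 1. Among them map3k7, the kinase TAK1 that feeds JNK, p38 and NF-kB, had 0.311 CPM in DMSO 1 and between 49.1 and 96.1 CPM elsewhere. With 6 libraries, 33 genes reached r over 0.9 with dusp2, 17 with dusp1 and 71 with dusp5.

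Of the marker lists, that of thrombocytes followed dusp2 and dusp5 most closely. Thrombocyte markers (12 of 14 found, 1 of them at 0 throughout) reached 79.9, 247 and 276 CPM in sum under DMSO and 530, 373 and 428 CPM in MTZ, so these sums did not overlap either. Their Pearson r over the 6 libraries was 0.89 with dusp2 and 0.96 with dusp5, the highest of the 12 marker lists for both genes. For dusp5 this r leans on DMSO 1, where both dusp5 (0.0778 CPM) and the thrombocyte sum were at their lowest. For dusp2, the r includes the difference between the groups, since dusp2 and the sum were both higher in every MTZ library. Under DMSO both rose from DMSO 1 to DMSO 3. Within MTZ, however, MTZ 2 had the most dusp2 (596 CPM) and the lowest thrombocyte sum (373 CPM). Some thrombocyte sums also rest in part on 1 gene of the list. Its thbs1b had 114 CPM in DMSO 2, 61.1 CPM in MTZ 2 and at most 0.108 CPM elsewhere, and its fn1b had 138.7 CPM in DMSO 3. The skeletal muscle sum, high in DMSO 1 alone, had r = -0.91 with dusp5 and -0.68 with dusp2. The gene with the most reads in this list, f13a1b, had 30.8, 46.8 and 12.9 CPM in DMSO and 169, 125 and 143 CPM in MTZ. Its nfe2 had 20.1, 44.2 and 26.1 CPM in DMSO and 109, 101 and 151 CPM in MTZ. Of the defining thrombocyte genes, the integrin gene itga2b had at most 1.87 CPM in DMSO and at least 48.0 CPM in MTZ. The thrombopoietin receptor gene mpl had 0, 0 and 33.3 CPM in DMSO and 84.5, 0 and 61.8 CPM in MTZ, with overlapping groups. The platelet glycoprotein gene gp9 was lower in every MTZ library, with 17.3, 19.4 and 24.7 CPM in DMSO and 0, 5.94 and 5.61 CPM in MTZ. The list's fibronectin gene fn1b (0, 5.85 and 138.7 CPM against 9.66, 10.3 and 0.646 CPM) and its transcription factor gene gfi1b (6.61, 0.526 and 20.5 CPM against 0, 0 and 15.6 CPM) also had lower means in MTZ, with overlapping groups. Stem and progenitor markers (16 of 16 found) ran from 723 to 2217 CPM in sum under DMSO and from 2227 to 2847 CPM under MTZ, with r = 0.52 for dusp2 and 0.00 for dusp5. T cell marker sums ran from 3368 to 3713 CPM under DMSO and from 1590 to 4456 CPM under MTZ, with r = -0.37 and -0.30. Much of that sum was ccr9a, with 780 CPM in MTZ 1 and up to 2842 CPM in MTZ 2, while cd4-1 and cd8a had no counts. Other genes of the T cell list were read, and their directions differed. The gene lck had 127, 99.2 and 238 CPM in DMSO and 0.054, 71.0 and 86.0 CPM in MTZ. In every MTZ library tox was lower too, with 122, 18.5 and 16.8 CPM in DMSO and 11.9, 3.90 and 0 CPM in MTZ. By contrast, cd28 was higher, with 16.3, 21.6 and 8.35 CPM in DMSO and 36.1, 82.0 and 61.5 CPM in MTZ. The part of these cell types in the dusp2 and dusp5 levels was not tested.

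**Figure D3:**
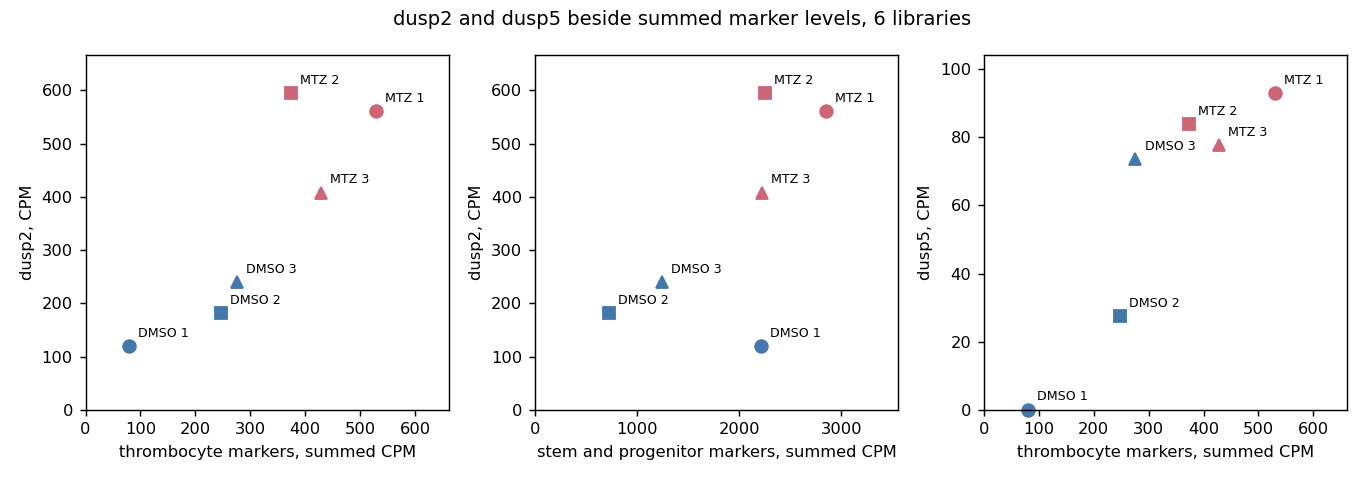
Level of dusp2 or dusp5 (y axis, CPM) beside the summed level of a marker list (x axis, CPM) in the 6 libraries, blue for DMSO and red for MTZ. Thrombocyte sums and dusp2 are both higher in all MTZ libraries, while DMSO 1 combines a stem and progenitor sum of 2217 CPM with the lowest dusp2 level.

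Most of the other phosphatase genes listed could not be tested. Of 6 further MAP kinase phosphatase genes listed, 3 were found, and ptprr, a receptor-type tyrosine phosphatase of ERK and p38, was the 1 that could be tested. It had 3.27, 59.5 and 50.5 CPM in DMSO and 38.5, 0.0619 and 45.2 CPM in MTZ, with the groups overlapping. The gene dusp8a had no counts, and ptpn5 had 91 and 147 counts in MTZ 1 and MTZ 2 and none elsewhere. Among atypical dual-specificity phosphatases, which lack the MAP kinase docking domain, 7 of 21 genes found could be tested and 10 had no counts. Of the 7, 4 had positive and 3 negative fold changes (median log2 fold change 0.28). Of the positive ones, those of smallest p were dusp22b, with 86.8, 80.6 and 33.6 CPM in DMSO and 161, 92.4 and 81.3 CPM in MTZ, and dusp12, with 50.3, 47.4 and 42.3 CPM in DMSO and 39.8, 72.5 and 58.2 CPM in MTZ. Of the negative ones they were dusp22a, at 0 in DMSO 1, MTZ 1 and MTZ 3, and the pseudophosphatase gene styx, with 91.3, 78.5 and 106 CPM in DMSO and 55.8, 48.0 and 78.9 CPM in MTZ. All 8 of these tested genes overlapped between the groups.

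The MAP kinase list, which holds the ERK, JNK and p38 genes and further kinases such as mapk6 and nlk1, had no common direction. Not every kinase in it is a known substrate of these phosphatases. Of 14 tested, 5 had positive and 9 negative fold changes (median log2 fold change -0.20), and edgeR called none. The p38 gene mapk14a had 70.5, 114 and 44.6 CPM in DMSO and 109, 88.5 and 108 CPM in MTZ, while its duplicate mapk14b had 44.6, 8.83 and 66.2 CPM and 30.4, 28.8 and 14.9 CPM. Of the 4 MAP kinase kinases tested, 3 were positive (median 1.98). That median rests on map2k4a (log2 fold change 2.12 ± 2.67) and map2k5 (1.84 ± 3.14). Both had libraries under the floor of 3 counts in each group. The other positive one, map2k2a, which activates ERK, had 44.3, 26.0 and 29.7 CPM in DMSO and 178, 272 and 41.4 CPM in MTZ. For map2k2a, DMSO 1 lay above MTZ 3. The negative one, map2k6, which activates p38, had 243, 198 and 244 CPM in DMSO and 134, 205 and 167 CPM in MTZ.

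Farther upstream, 14 of 27 tested genes of Ras signalling and the MAP3 kinases were positive and 13 negative (median 0.03). The adaptor gene shc1 had 36.3, 29.5 and 31.7 CPM in DMSO and 51.7, 194 and 97.8 CPM in MTZ. The Raf kinase gene araf had 83.5, 47.8 and 66.4 CPM and 133, 120 and 149 CPM. For both, all MTZ libraries were the higher ones. For map3k4, which feeds JNK and p38, all were the lower ones, with 15.8, 155 and 37.0 CPM in DMSO and 0.270, 11.8 and 4.72 CPM in MTZ. Kinases that MAP kinases activate in turn were evenly divided, 4 positive and 4 negative of 8 tested (median 0.18). Their member of smallest p, mknk2b, which phosphorylates a translation initiation factor, had 370, 260 and 347 CPM in DMSO and 233, 230 and 104 CPM in MTZ.

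Other genes of the ERK and AP-1 pathway had no common direction either. Of 32 tested genes in this list, 14 were positive and 18 negative (median log2 fold change -0.04). Most are transcription factors, and the list also holds elk family genes, whose proteins are substrates of ERK. The AP-1 gene junbb had 78.1, 62.3 and 164 CPM in DMSO and 309, 500 and 517 CPM in MTZ, and the immediate early gene ier2a had 407, 671 and 687 CPM and 712, 971 and 1211 CPM. For both, every MTZ library lay above every DMSO library, as for dusp2. The immediate early gene fosb went the other way, with 3.03, 3.10 and 8.02 CPM in DMSO and 0.324, 0.0619 and 0.745 CPM in MTZ. Its MTZ levels were near or under the floor of 3 counts. The gene klf6a was also lower in every MTZ library, with 67.8, 66.9 and 76.3 CPM in DMSO and 40.7, 18.6 and 20.4 CPM in MTZ. The sprouty, spred and related feedback inhibitors of ERK had 4 positive and 3 negative members of 7 tested (median 0.45). Their spry4, a target of Fgf signalling like dusp6, had 27.8, 0.117 and 0.0658 CPM in DMSO and 30.0, 0.0619 and 47.9 CPM in MTZ. In all these lists edgeR called 0 genes at an adjusted p under 0.05 (smallest adjusted p = 0.9997).

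**Figure D4:**
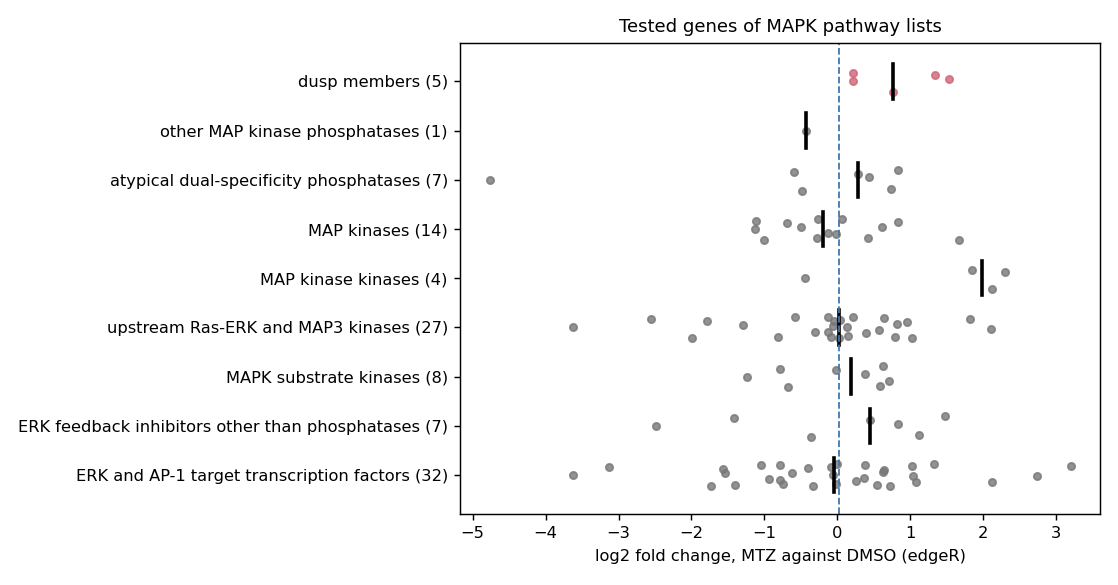
Log2 fold change of MTZ against DMSO (x axis, edgeR) of each tested gene in the phosphatase family and 8 lists of the MAP kinase pathway, with the number tested in brackets; black bars are list medians and the dashed line is the median of all genes tested. The 5 phosphatase genes, picked with these values known, lie above 0 with a median of 0.76, though dusp4 and dusp6 change sign when single libraries are left out. The MAP kinases and the ERK and AP-1 list lie on both sides.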

How the data were processed

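The authors deposited 1 table in which each value is an estimated count (expected count) of reads per gene, without scaling between libraries. HISAT2 and GRCz11 are named in the submitters' processing notes; how reads were counted, and whether by strand, is not given in the sources used here, so genes that overlap others are uncertain. Values were rounded to whole numbers (between 8.31% and 9.90% of nonzero values had decimals). MTZ was compared with DMSO by the two-sided quasi-likelihood test of edgeR 4.0.16 (R 4.3.3) with TMM factors, its default filter (minimum count 10) and the group as the only term. Benjamini-Hochberg adjustment covered all 10283 genes tested, with a threshold of 0.05. SE is the fold change over the square root of F. DESeq2 1.42.0 and limma 3.58.1 were alternatives. Of 394 list entries 23 had no match, and 7 were found by gene ID. Besides the 8 members, genes were named by rule: in a pathway list the 2 of smallest p in each direction (some are left out of the text), and the 4 of highest r to dusp2, dusp1 and dusp5. The leukocyte genes coro1a, lcp1 and ptprc were named outside this rule, after their values were seen. So were the thrombocyte genes itga2b, f13a1b, nfe2, mpl, gp9, thbs1b, fn1b and gfi1b. The same holds for the T cell genes ccr9a, cd4-1, cd8a, lck, tox and cd28 and for the MAP kinase kinase gene map2k5. The members and lists were chosen with earlier results of these data known. Levels are not compared between genes, since no transcript lengths were used here. Counting limits are too narrow where PCR copies of a molecule were read, since the libraries carry no molecular identifiers.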

Additional observations from a re-analysis of the deposited data

How the results depend on the processing

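Under the scaling, filter, dispersion, test and leave-one-out alternatives, the log2 fold changes of dusp1, dusp2 and dusp5 kept their positive sign in all 16 runs each. They lay between 0.46 and 1.05 for dusp1, between 1.31 and 1.79 for dusp2 and between 0.76 and 3.56 for dusp5, whose highest value came from limma voom. Leaving out DMSO 2 or MTZ 3 turned dusp4 to -0.24 or -0.50, and leaving out MTZ 1 turned dusp6 to -0.15. With a library left out, dusp4 ran from -0.50 to 1.26 and dusp6 from -0.15 to 0.42. Calls depended on the tool and filter. With no filter on low counts edgeR called 52 of 17911 genes tested, and DESeq2 called 381 of 10266. DESeq2 on the genes edgeR tested, an alternative chosen after seeing the data, called 130 of 9776. Each of these runs called 1 of the phosphatase genes, dusp2 (adjusted p = 0.0263, 0.00538 and 0.00741), of 7, 5 and 5 tested. All other runs called 0, and adjusted p for dusp2 ranged up to 1. The cause was not tested.

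With the replicate number as a block edgeR called 0 genes, and dusp2 had a log2 fold change of 1.57 ± 0.38. The numbers were not treated as pairs, because deviations of same-numbered libraries from their group means correlated at -0.02, 0.01 and -0.05 over genes. The groups did not overlap for 2 of the 8 genes, tested or not, under every scaling. In the main run 5.58% of all genes tested were higher in every MTZ library and 5.17% lower. The 8 genes were picked with these values known, so nothing is read from this count. With 3 libraries of 50 cells per group, dusp7 and dusp16 had counts in 3 of the 6 libraries each.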

Other observations

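Rows of the table outside the naming rule also described dual-specificity phosphatases. A locus with an assembler ID and the symbol DUSP8 (described as similar to phosphatase 8, which acts on JNK and p38 in mammals) had 200 counts in DMSO 1, the library with the muscle reads, and none in the other 5 libraries. The annotated dusp8a row had no counts. A clone-named row described as phosphatase 26 had 64 counts in MTZ 1, 59 in MTZ 2 and none elsewhere.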
